A study of Homo sapiens with 9 samples.

Results

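DNA replication and S-phase genes were followed in HT-29 cells, an established human colorectal adenocarcinoma line of epithelial origin. The list held 41 genes of 23284 gene symbols measured. It was composed by function, but with earlier results of these data known. It covered the helicase, its loaders, the sliding clamp, the polymerases, thymidylate supply, cyclin E, E2F1 and the histone chaperones of the fork. All 41 genes were found in the data, each as a single entry, and all 41 entered every comparison.

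Monolayers of HT-29 cells received the vehicle DMSO alone (0 µM, the control), 5 µM or 10 µM of 5-aza-deoxycytidine (5-Aza) for 5 days. 5-Aza is a cytidine analog that enters DNA during replication and traps DNA methyltransferases, and DMSO was shared by every group as its solvent. Each dose was given to 3 cultures, and total RNA was extracted from each culture. The mRNA purified from it was sequenced as a paired-end RNA-Seq library, which gave 9 libraries. All cells belonged to 1 cell line, and the epithelial markers KRT8, KRT18, EPCAM and CDH1 were read in each of the 9 libraries.

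A cell copies its genome once per cycle. Origins are licensed in G1 when CDC6 and CDT1 load the ring of MCM proteins, and they fire in S phase when CDC45 and GINS join the ring to form the moving helicase. E2F factors, freed from the RB protein by cyclin-dependent kinases, are known to drive the transcription of many of these genes, whereas many mitotic genes are driven later through CHR promoter elements.

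E2F factors recognize short GC-rich letters, so the promoters were searched for them. The stretches below are shown because they stand for the role groups, each by the gene with the largest rise at 5 µM among those with such letters wholly upstream of the start. The histone chaperones and SLBP had none. MCM6 was added for holding the most matches. The sequences are from RefSeq (GRCh38.p14) and read 5′ to 3′ in the direction of the gene, and capitals mark the E2F letters TTTCCCGC, TTTCGCGC, TTTGCCGC and TTTGGCGC or their reverse complements.
MCM6 (chr2:135876507-135876610, minus strand): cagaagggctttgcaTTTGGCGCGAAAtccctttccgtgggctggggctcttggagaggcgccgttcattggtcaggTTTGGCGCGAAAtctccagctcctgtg
MCM7 (chr7:100101398-100101599, minus strand): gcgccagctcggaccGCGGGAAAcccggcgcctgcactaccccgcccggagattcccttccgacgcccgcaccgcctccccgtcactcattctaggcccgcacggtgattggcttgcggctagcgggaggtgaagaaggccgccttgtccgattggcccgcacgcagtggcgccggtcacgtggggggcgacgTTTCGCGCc
CDT1 (chr16:88803739-88803776, plus strand): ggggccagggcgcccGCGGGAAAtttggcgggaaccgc
PCNA (chr20:5126659-5126696, minus strand): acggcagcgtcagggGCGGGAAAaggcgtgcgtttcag
POLE (chr12:132687343-132687375, minus strand): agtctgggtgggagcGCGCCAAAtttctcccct
LIG1 (chr19:48170436-48170473, minus strand): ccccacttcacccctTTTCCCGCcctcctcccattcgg
TYMS (chr18:657599-657636, plus strand): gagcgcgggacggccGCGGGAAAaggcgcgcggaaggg
E2F1 (chr20:33686386-33686433, minus strand): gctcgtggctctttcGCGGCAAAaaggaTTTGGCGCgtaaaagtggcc

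MCM6 held 4 matches, which were 2 overlapping pairs on opposite strands. E2F1, whose product is itself an E2F factor, held 2 matches within the 48 bases before its start. A promoter window of 300 bases around the start was available for 35 of the 41 genes, and 18 of the 35 (51.4%) held at least 1 of the E2F letters on either strand. The share was 3.33% over all 27303 promoter windows and 10.0% over the 20 windows of 25 mitosis genes. CCAAT, the letters of NF-Y, stood in 51.4% of the replication windows, 80.0% of the mitosis windows and 35.7% of all windows. TTTGAA, the CHR letters, stood in 2.86% of the replication windows, which was ASF1B alone, against 70.0% of the mitosis windows and 15.4% of all windows.

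The promoter windows were also counted for CpG, the dinucleotide that DNA methyltransferases modify. Their median was 32 CpG per window, against 23 in the mitosis windows and 14 over all windows. The median ratio of observed to expected CpG was 0.97 for the replication genes, 0.94 for the mitosis genes and 0.58 over all windows. Matches and CpG counts describe these letters only, and methylation was not analysed here.

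The files hold FPKM, fragments per kilobase of transcript scaled per library, so levels of different genes can be set side by side per length. In the controls, MCM7 was the highest of the 41 with a mean of 393849 FPKM, at the 85.9th percentile of the genes above 0. PCNA and SLBP followed with means of 268641 and 257316 FPKM. GINS4 was the lowest with a mean of 1718 FPKM, at the 18.3th percentile, and MCM10 and POLE2 stood next to it with 2435 and 5486 FPKM. The FPKM values of a library summed to between 3.69e+09 and 5.91e+09, far above a usual scale, so they are relative values.

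The libraries differed in depth, which was estimated from the steps of the lowest values as 13500000 to 37300000 fragments. GINS4 rested on an estimated 6.4 fragments in the library where it was lowest, which was a control, MCM10 on 10.9 and POLE2 on 13.0, so that counting error weighs on these 3 genes. Over the 15278 genes above 0 in every library, the median log2 level against the control mean was -0.34 and -0.32 in 10 µM replicates 1 and 3, but -0.03 in 10 µM replicate 2. In bulk RNA, fewer cells in a given cycle phase and less RNA per cell cannot be told apart.

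Markers of cell types moved with the doses as well. The 10 epithelial markers summed to between 9.03e+07 and 1.09e+08 FPKM in the controls, 3.77e+07 and 4.23e+07 at 5 µM, and 2.96e+07 and 5.21e+07 at 10 µM, and 1 rose and 7 fell at 5 µM. The 7 fibroblast markers summed to between 23000 and 32400 FPKM in the controls, 82800 and 89600 FPKM at 5 µM and 45400 and 52500 FPKM at 10 µM, and 4 rose at 5 µM. The 6 endothelial markers summed to between 5870 and 7550 FPKM in the controls, 20000 and 28600 FPKM at 5 µM and 7710 and 8900 FPKM at 10 µM, and 4 rose at 5 µM. These sums stood far below the epithelial ones at every dose. The 9 blood cell markers summed to between 8.69e+06 and 8.94e+06 FPKM in the controls, 4.56e+06 and 5.43e+06 at 5 µM, and 4.73e+06 and 6.88e+06 at 10 µM, most of it LYZ. At 5 µM CD68 and CD3E rose and LYZ fell, and CD3E, CD3D and HBB were listed at 0 in all 3 controls. CD3E stayed low, with 732, 770 and 912 FPKM at 5 µM. These rises and falls were counted at an adjusted p of at most 0.05 in the limma test given below. Of the 20051 genes tested at 5 µM, 21.3% rose and 17.7% fell. With a library left out, COL1A2, PDGFRB and KRT20 passed in 1 of 6 fits and PECAM1 in 2. The other markers that passed did so in all 6. The part of these markers in the results on the replication genes was not tested.

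At 5 µM 5-Aza the replication genes were broadly higher than in the control. Of the 41, 31 rose and 0 fell in limma on log2(FPKM + 1) when called at an adjusted p (Benjamini-Hochberg) up to 0.05, where 21.3% of the 20051 genes tested rose and 17.7% fell. At an unadjusted p of at most 0.05, 33 were higher and 0 were lower. The rise exceeded 2-fold for 17 of the 41 and the fall for 0, against 14.1% and 2.17% of all genes. In 32 of the 41 genes every 5 µM culture lay above every control, and in 0 every one lay below, which held for 29.4% and 23.2% of all genes. The median log2 fold change of the 41 was 0.79, and that of all genes tested was 0.14. All genes tested include genes listed at 0 in some cultures, whereas the 41 were above 0 in every library. Among the 15418 genes above 0 in all 6 libraries, 3135 rose and 3552 fell, 1690 and 435 of them past 2-fold. Their median was -0.04.

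**Figure D1:**
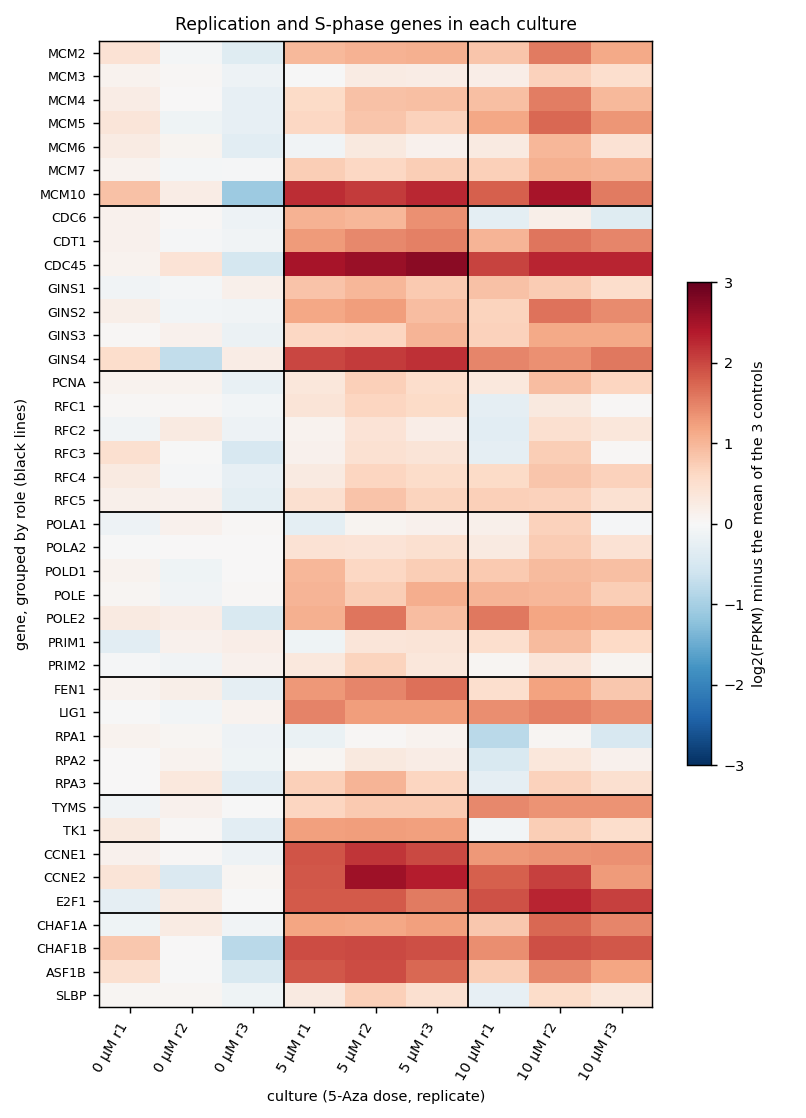
Log2 FPKM of the 41 genes in each of the 9 cultures (columns, by dose and replicate) minus the mean of the 3 controls, with red for higher and blue for lower and black lines between role groups and doses. The 5 µM and 10 µM columns are mostly red, with CDC45 reaching a mean log2 fold change of 2.60 at 5 µM, whereas the 10 µM cultures of CDC6 lie on both sides of the control mean.

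With each of the 6 libraries left out in turn, between 24 and 32 of the 41 genes rose and 0 fell, and 23 of the 31 kept an adjusted p of at most 0.05 in all 6 fits. The other 8 were MCM5, MCM10, GINS3, PCNA, RFC5, POLE2, RPA3 and SLBP. Scaling each library to its total moved the median of all genes tested from 0.14 to 0.42 and the share that rose to 33.0%, with 7.73% falling. Under that scaling 37 of the 41 genes rose, and under median-of-ratios scaling 34 rose.

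At 10 µM the replication genes also stood above the control, but fewer passed the test. Of the 41, 21 rose and 0 fell, where 5.39% of the 18928 genes tested rose and 9.71% fell. At an unadjusted p of at most 0.05, 30 were higher and 0 were lower. The rise exceeded 2-fold for 15 of the 41 and the fall for 0, against 4.07% and 3.4% of all genes. In 30 of the 41 the 10 µM cultures lay wholly above the controls and in 0 wholly below, against 14.4% and 26.7% of all genes. The median log2 fold change of the 41 was 0.88, and that of all genes tested was -0.15. Among the 15261 genes above 0 in all 6 libraries, 798 rose and 1831 fell, with a median of -0.23. Both doses were compared with the same 3 controls.

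The count of genes that rose at 10 µM depended on single libraries. It was 6 without control replicate 2, 10 without control replicate 3, 10 without 10 µM replicate 3 and 13 without 10 µM replicate 1. It was 15 without control replicate 1 and 19 without 10 µM replicate 2, in which fit 1 gene fell. CDT1, CDC45, LIG1, TYMS, CCNE1 and E2F1 passed in each of these 6 fits. Median-of-ratios scaling moved the median of all genes from -0.15 to 0.08 and the shares of all genes to 10.2% rising and 9.67% falling, and 29 of the 41 genes rose. Total scaling moved that median to 0.22 and the shares to 13.5% and 5.84%, and 33 of the 41 rose.

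**Figure D2:**
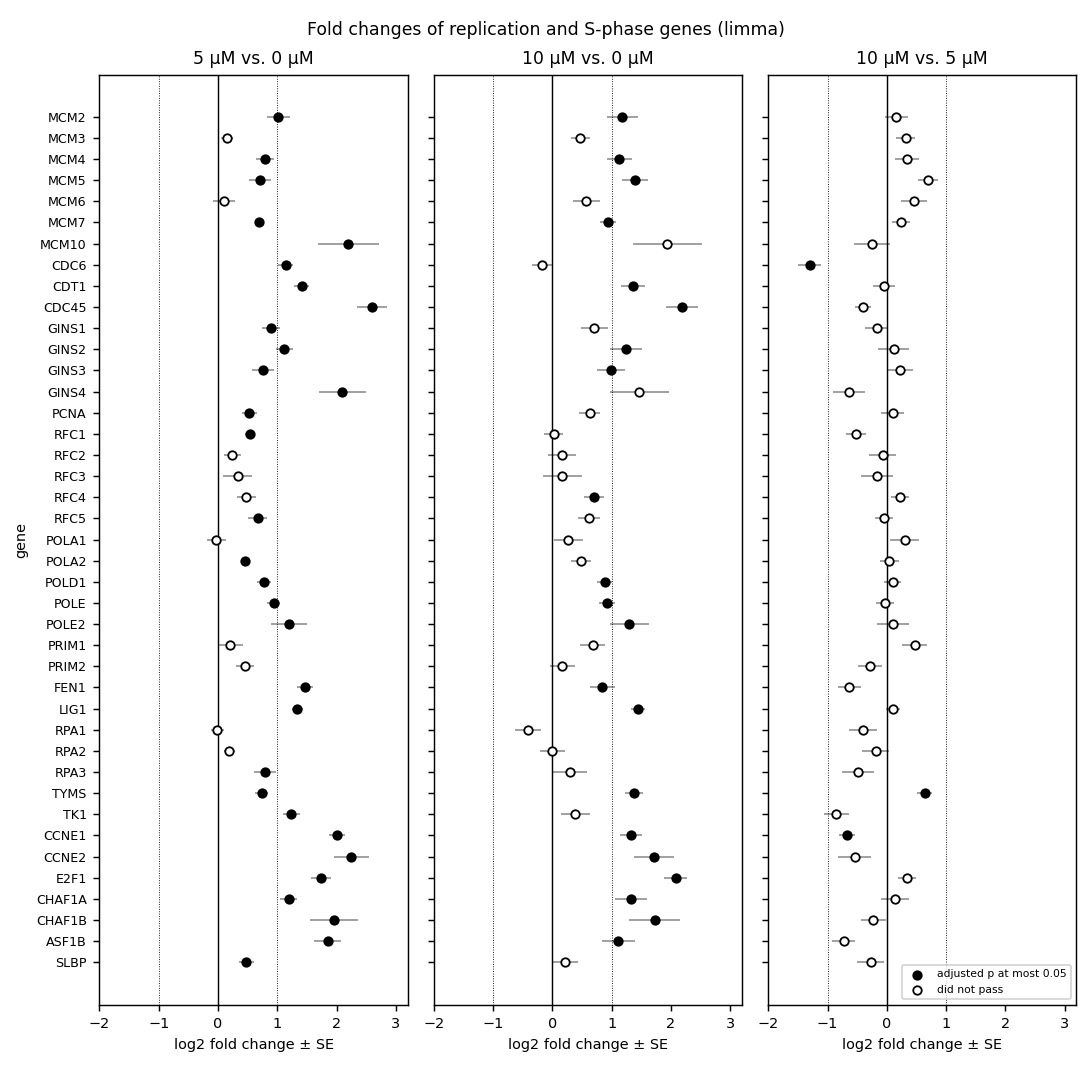
Log2 fold change (x axis) with its standard error for each of the 41 genes (rows) in the 3 comparisons, with filled points for an adjusted p of at most 0.05 and dotted lines at 2-fold. Filled points number 31 at 5 µM and 21 at 10 µM, all to the right of 0, and 3 between 10 µM and 5 µM.

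The MCM2 to MCM7 ring is the motor of the replicative helicase, and MCM10 helps to activate it. Of these 7 genes, 5 rose at 5 µM and 4 at 10 µM, with median log2 fold changes of 0.71 and 1.13. The shares over all genes, here and for the role groups below, were 21.3% rising at 5 µM and 5.39% at 10 µM. MCM7 measured 420455, 377219 and 383872 FPKM in the controls, 656872, 609390 and 652354 FPKM at 5 µM and 649604, 828944 and 798707 FPKM at 10 µM. Both doses lay wholly above the controls and overlapped each other. MCM7 thus rose by a log2 fold change of 0.70 ± 0.07 (SE, adjusted p = 0.000784) at 5 µM and 0.94 ± 0.14 (adjusted p = 0.0108) at 10 µM. Exons of MCM7 overlap those of MIR93 and, on the opposite strand, AP4M1, and reads of such overlapping genes may be shared. The same holds, for genes on the opposite strand, of GINS1, RFC4, RFC5, RPA1, CCNE2 and CHAF1A.

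MCM5, another subunit of the ring, measured 41503, 29435 and 27089 FPKM in the controls, 49179, 57616 and 51558 FPKM at 5 µM and 72254, 105115 and 80854 FPKM at 10 µM. Its 3 doses formed separate ranges in order of dose. MCM5 rose by 0.71 ± 0.18 (adjusted p = 0.0223) at 5 µM and by 1.40 ± 0.22 (adjusted p = 0.0123) at 10 µM, while the difference between the doses was 0.69 ± 0.17 (adjusted p = 0.0677). The rise of MCM5 at 5 µM passed in 1 of the 6 fits that left out a library. MCM2 measured 96093, 67404 and 54535 FPKM in the controls, 137652, 144547 and 147617 FPKM at 5 µM and 126636, 207588 and 155646 FPKM at 10 µM. Its treated cultures were all above its controls, and its log2 fold changes were 1.02 ± 0.20 (adjusted p = 0.00912) and 1.18 ± 0.26 (adjusted p = 0.0277).

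MCM4 measured 78624, 68145 and 56672 FPKM in the controls, 100080, 122984 and 126614 FPKM at 5 µM and 124658, 194351 and 131291 FPKM at 10 µM. It rose at both doses, by 0.79 ± 0.15 (adjusted p = 0.00834) and 1.13 ± 0.21 (adjusted p = 0.0192). MCM3 and MCM6 overlapped the controls at 5 µM, with log2 fold changes of 0.15 ± 0.10 and 0.10 ± 0.18, and lay wholly above them at 10 µM without passing the test (0.47 ± 0.16, adjusted p = 0.0834, and 0.57 ± 0.23, adjusted p = 0.13). MCM10 measured 3869, 2446 and 988 FPKM in the controls, 9798, 9080 and 10116 FPKM at 5 µM and 7335, 11648 and 6202 FPKM at 10 µM. The controls of this low gene spread widely and still lay below every treated culture. Its rise was 2.20 ± 0.52 (adjusted p = 0.0176) at 5 µM, and its value at 10 µM was 1.94 ± 0.58 (adjusted p = 0.0622).

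All 7 genes of licensing and helicase assembly rose at 5 µM, and 4 of them rose at 10 µM. The median log2 fold changes were 1.14 and 1.24. CDC45, the helicase subunit that joins the ring at firing (chr22:19466980-19508135, plus strand, GRCh37), measured 14650, 18152 and 9412 FPKM in the controls, 75846, 82106 and 89146 FPKM at 5 µM and 55152, 65998 and 65822 FPKM at 10 µM. The controls were far below both doses, and 10 µM lay below 5 µM. CDC45 showed the largest fold change of the 41 genes at each dose, 2.60 ± 0.25 (adjusted p = 0.000677) at 5 µM and 2.19 ± 0.27 (adjusted p = 0.00609) at 10 µM, and the difference between doses did not pass (-0.40 ± 0.14, adjusted p = 0.144).

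CDC6, the loader of the MCM ring (chr17:38444131-38460909, plus strand, GRCh37), took another course. It measured 125631, 118406 and 103717 FPKM in the controls, 239038, 229787 and 299071 FPKM at 5 µM and 93992, 130186 and 89133 FPKM at 10 µM. The 5 µM cultures stood apart from both other groups, which overlapped. CDC6 rose by 1.14 ± 0.13 (adjusted p = 0.00109) at 5 µM and was lower at 10 µM than at 5 µM by a log2 difference of -1.30 ± 0.19 (adjusted p = 0.0107). Against the control, 10 µM gave -0.17 ± 0.18 (adjusted p = 0.526), and the sign of that value turned under median-of-ratios scaling (0.07) and total scaling (0.21). Leaving out 5 µM replicates 1, 2 or 3 raised the adjusted p between the doses to 0.0545, 0.0521 and 0.0679.

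CDT1, the partner of CDC6 in loading, measured 23225, 20714 and 19578 FPKM in the controls, 51236, 57305 and 59927 FPKM at 5 µM and 42640, 64451 and 57872 FPKM at 10 µM. In contrast to CDC6, its level at 10 µM overlapped that at 5 µM. It rose by 1.41 ± 0.12 (adjusted p = 0.000477) and 1.36 ± 0.21 (adjusted p = 0.0108). The difference of CDT1 between the doses was -0.05 ± 0.19 (adjusted p = 0.89), and its sign turned under median-of-ratios (0.15) and total scaling (0.04).

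GINS1 to GINS4 encode the GINS complex. GINS4 measured 2311, 974 and 1870 FPKM in the controls, 6464, 6894 and 7430 FPKM at 5 µM and 4464, 4185 and 4816 FPKM at 10 µM. The 3 groups of GINS4 did not overlap, with 5 µM the highest, and its log2 fold changes were 2.10 ± 0.40 (adjusted p = 0.00783) at 5 µM and 1.47 ± 0.49 (adjusted p = 0.0783) at 10 µM. GINS2 measured 26029, 21940 and 21425 FPKM in the controls, 51480, 55383 and 43830 FPKM at 5 µM and 36616, 71084 and 61650 FPKM at 10 µM. It rose at both doses, by 1.12 ± 0.14 (adjusted p = 0.00151) and 1.24 ± 0.27 (adjusted p = 0.0271). GINS1 rose at 5 µM (0.89 ± 0.15, adjusted p = 0.00526) and GINS3 at both doses (0.76 ± 0.18, adjusted p = 0.0202, and 0.99 ± 0.24, adjusted p = 0.0386).

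Of the 6 genes of the sliding clamp and its loader, 3 rose at 5 µM and 1 at 10 µM, 0 of them past 2-fold, with median log2 fold changes of 0.50 and 0.40. PCNA, the clamp that tethers the polymerases, measured 287450, 288713 and 229760 FPKM in the controls, 336815, 435614 and 387401 FPKM at 5 µM and 332054, 504425 and 418514 FPKM at 10 µM. Both doses lay above the controls. PCNA rose by 0.53 ± 0.13 (adjusted p = 0.0224) at 5 µM, and its value at 10 µM was 0.63 ± 0.18 (adjusted p = 0.0601).

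RFC1, the large subunit of the clamp loader, measured 191741, 192620 and 176910 FPKM in the controls, 244538, 291034 and 280269 FPKM at 5 µM and 155720, 230173 and 190181 FPKM at 10 µM. It was high at 5 µM alone, and its 10 µM cultures overlapped the controls. RFC1 rose by 0.54 ± 0.09 (adjusted p = 0.00405) at 5 µM, while the value at 10 µM was 0.02 ± 0.16 (adjusted p = 0.947). RFC5 rose at 5 µM (0.67 ± 0.16, adjusted p = 0.0185) and RFC4 at 10 µM (0.70 ± 0.17, adjusted p = 0.0361). RFC3 spread widely, with 57357, 40767 and 29318 FPKM in the controls, 44988, 56305 and 53259 FPKM at 5 µM and 34123, 68611 and 41724 FPKM at 10 µM. Its 3 groups overlapped, as did those of RFC2.

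Among 7 genes of the polymerases and primase, 4 rose at 5 µM and 3 at 10 µM. POLD1, the catalytic subunit of polymerase delta, measured 108436, 92425 and 101124 FPKM in the controls, 199620, 153866 and 166459 FPKM at 5 µM and 173981, 192845 and 188684 FPKM at 10 µM. The treated cultures were all above the controls, by 0.78 ± 0.12 (adjusted p = 0.00323) and 0.88 ± 0.12 (adjusted p = 0.00857). POLE, the catalytic subunit of polymerase epsilon, rose by 0.94 ± 0.11 (adjusted p = 0.00141) and 0.92 ± 0.14 (adjusted p = 0.00996). POLE2, its accessory subunit, measured 6478, 6100 and 3880 FPKM in the controls, 11252, 16273 and 10165 FPKM at 5 µM and 16032, 12160 and 11775 FPKM at 10 µM. This low gene also stood above its controls in every treated culture, and it rose by 1.20 ± 0.30 (adjusted p = 0.0227) and 1.30 ± 0.33 (adjusted p = 0.0408).

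Polymerase alpha and primase, which lay down the primers, showed smaller log2 fold changes than POLD1, POLE and POLE2 at both doses. POLA2 rose at 5 µM (0.45 ± 0.07, adjusted p = 0.00456). PRIM1 and PRIM2, the 2 primase subunits, had log2 fold changes at 5 µM of 0.21 ± 0.21 (adjusted p = 0.43) and 0.45 ± 0.15 (adjusted p = 0.0617). POLA1, the catalytic subunit of polymerase alpha, gave -0.03 ± 0.16 (adjusted p = 0.9) at 5 µM, and its sign turned under median-of-ratios (0.01) and total scaling (0.26). At 10 µM PRIM1 (0.68 ± 0.21, adjusted p = 0.068) and POLA2 (0.49 ± 0.17, adjusted p = 0.0843) lay wholly above the controls without passing. POLA1 (0.27 ± 0.24, adjusted p = 0.46) and PRIM2 (0.17 ± 0.21, adjusted p = 0.566) overlapped the controls there. Exons of PRIM1 overlap those of NACA and HSD17B6.

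Of the 5 genes for joining lagging-strand fragments and for RPA, which coats single-stranded DNA, 3 rose at 5 µM and 2 at 10 µM. LIG1, the ligase, measured 75795, 72893 and 82603 FPKM in the controls, 216971, 184425 and 184961 FPKM at 5 µM and 203437, 218146 and 203852 FPKM at 10 µM. Its replicates were tight and both doses lay far above the controls, by 1.34 ± 0.09 (adjusted p = 0.000303) and 1.44 ± 0.12 (adjusted p = 0.00231). FEN1, the flap nuclease, measured 96176, 100337 and 74382 FPKM in the controls, 221308, 245717 and 279480 FPKM at 5 µM and 127709, 205960 and 156965 FPKM at 10 µM. The 10 µM cultures lay in a range of their own between the other groups. FEN1 rose by 1.47 ± 0.14 (adjusted p = 0.000748) at 5 µM and 0.84 ± 0.21 (adjusted p = 0.0389) at 10 µM, and its exons overlap those of FADS2.

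RPA2, the highest of these 5 genes in the controls, measured 205435, 217491 and 186257 FPKM in the controls, 212244, 247484 and 235559 FPKM at 5 µM and 146911, 256981 and 222725 FPKM at 10 µM. All 3 groups overlapped. RPA3 measured 35340, 43885 and 28187 FPKM in the controls, 58077, 71263 and 54865 FPKM at 5 µM and 29149, 56821 and 49325 FPKM at 10 µM. It rose at 5 µM by 0.79 ± 0.19 (adjusted p = 0.0188) and overlapped the controls at 10 µM. RPA1 gave -0.01 ± 0.11 (adjusted p = 0.925) at 5 µM, a sign that turned under median-of-ratios (0.02) and total scaling (0.27), and -0.41 ± 0.22 (adjusted p = 0.221) at 10 µM.

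Thymidylate for DNA comes from TYMS, which makes it from deoxyuridylate, and from TK1, which salvages thymidine. TYMS measured 22639, 26544 and 24052 FPKM in the controls, 38359, 41890 and 41685 FPKM at 5 µM and 66487, 62398 and 61722 FPKM at 10 µM. TYMS lies at chr18:657653-673578 on the plus strand of GRCh37. The 3 groups of TYMS stepped upward with dose without overlap. It rose by 0.74 ± 0.11 (adjusted p = 0.00312) at 5 µM and 1.38 ± 0.15 (adjusted p = 0.00497) at 10 µM, and its exons overlap those of ENOSF1 on the opposite strand.

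TK1 measured 91045, 75647 and 59693 FPKM in the controls, 174792, 176701 and 175610 FPKM at 5 µM and 70334, 124183 and 106686 FPKM at 10 µM. Its 5 µM cultures were nearly equal and far above the others, and its 10 µM cultures overlapped the controls. TK1 rose by 1.24 ± 0.15 (adjusted p = 0.00148) at 5 µM. The value at 10 µM was 0.39 ± 0.25 (adjusted p = 0.292), and the difference between the doses was -0.85 ± 0.21 (adjusted p = 0.0653).

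Cyclin E, the partner of CDK2 at S-phase entry, and E2F1 were among the genes with the largest changes. CCNE1 measured 14511, 13688 and 11944 FPKM in the controls, 49540, 59058 and 52459 FPKM at 5 µM and 32869, 33718 and 34370 FPKM at 10 µM. The groups did not overlap, and 10 µM lay between the other groups. CCNE1 rose by 2.01 ± 0.13 (adjusted p = 0.000266) at 5 µM and 1.33 ± 0.19 (adjusted p = 0.00902) at 10 µM. CCNE2 measured 7902, 4426 and 6210 FPKM in the controls, 21880, 34861 and 30647 FPKM at 5 µM and 20934, 24984 and 14564 FPKM at 10 µM. Both doses of CCNE2 were above the controls and overlapped each other, with rises of 2.25 ± 0.29 (adjusted p = 0.00169) and 1.71 ± 0.34 (adjusted p = 0.0219).

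E2F1 (chr20:32263283-32274191, minus strand, GRCh37) measured 18087, 26394 and 21678 FPKM in the controls, 77738, 77516 and 64566 FPKM at 5 µM and 82493, 105930 and 90078 FPKM at 10 µM. Its groups stepped upward with dose without overlap. It rose by 1.74 ± 0.17 (adjusted p = 0.000685) at 5 µM and 2.08 ± 0.20 (adjusted p = 0.00327) at 10 µM, and the difference between the doses was 0.34 ± 0.15 (adjusted p = 0.221).

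**Figure D3:**
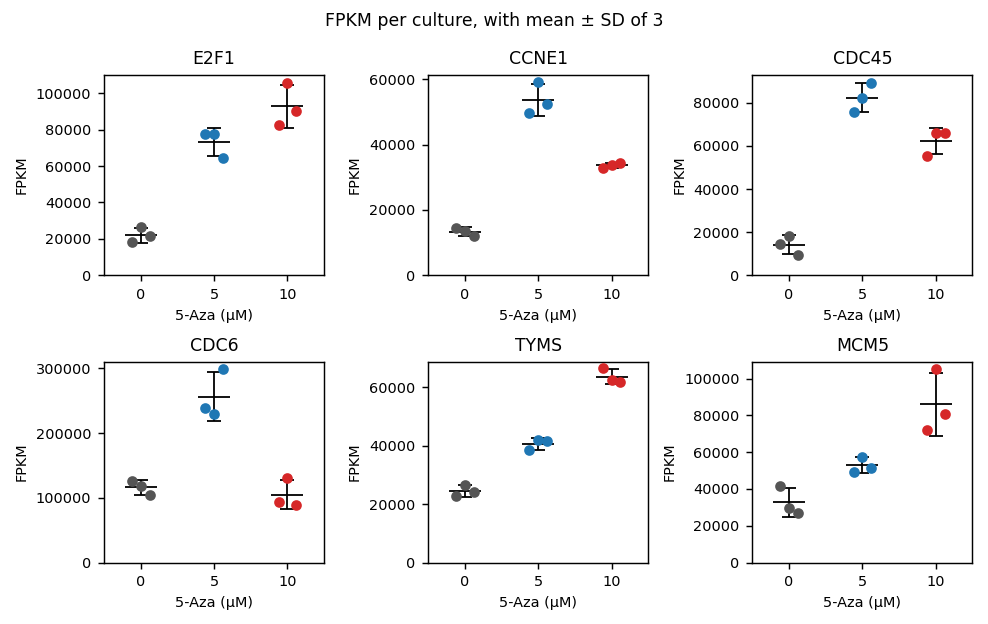
FPKM (y axis, from 0) of E2F1, CCNE1, CDC45, CDC6, TYMS and MCM5 in each culture by 5-Aza dose (x axis), with the mean and SD of 3 cultures. E2F1, TYMS and MCM5 are highest at 10 µM, CCNE1 and CDC45 are highest at 5 µM with 10 µM in between, and the 10 µM cultures of CDC6 overlap the controls.

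The histone chaperones that rebuild nucleosomes behind the fork rose at both doses. CHAF1B, a subunit of chromatin assembly factor 1, measured 11071, 6355 and 3629 FPKM in the controls, 24547, 25186 and 24379 FPKM at 5 µM and 16551, 24255 and 23206 FPKM at 10 µM. The controls lay below all treated cultures, and the 5 µM cultures were nearly equal. Its log2 fold changes were 1.96 ± 0.40 (adjusted p = 0.0101) and 1.73 ± 0.43 (adjusted p = 0.0396). Exons of CHAF1B overlap those of MORC3 on the same strand. CHAF1A, its large partner, measured 16319, 21293 and 16654 FPKM in the controls, 40856, 40118 and 42308 FPKM at 5 µM and 31430, 59424 and 49669 FPKM at 10 µM. All treated cultures exceeded the controls, and CHAF1A rose by 1.19 ± 0.14 (adjusted p = 0.00126) and 1.33 ± 0.27 (adjusted p = 0.0237).

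ASF1B, which hands histones to that complex, measured 49730, 35598 and 26113 FPKM in the controls, 130934, 139766 and 117511 FPKM at 5 µM and 59682, 96795 and 80887 FPKM at 10 µM. The 10 µM cultures lay between the other groups without overlap. ASF1B rose by 1.85 ± 0.23 (adjusted p = 0.00161) and 1.11 ± 0.28 (adjusted p = 0.0407). SLBP, which binds the stem-loop of histone mRNAs, measured 268972, 268209 and 234767 FPKM in the controls, 308752, 418757 and 356481 FPKM at 5 µM and 217984, 376495 and 323350 FPKM at 10 µM. It rose at 5 µM by 0.48 ± 0.12 (adjusted p = 0.0247), and its 10 µM cultures overlapped the controls.

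Between 10 µM and 5 µM few of the 41 genes differed. TYMS rose by 0.64 ± 0.13 (adjusted p = 0.0332), where 0.319% of the 20085 genes tested rose. CDC6 and CCNE1 fell, CCNE1 by a log2 difference of -0.67 ± 0.14 (adjusted p = 0.0393), where 5.85% of all genes fell. CDC6 was the 1 gene of the 41 whose fall exceeded 2-fold, against 4.82% of all genes, and 0 rose past it, against 0.129%. At an unadjusted p of at most 0.05, 2 of the 41 were higher and 7 were lower. MCM5, PRIM1, TYMS and E2F1 lay wholly higher at 10 µM than at 5 µM, 4 genes against a background of 4.37%. The 9 genes that lay wholly lower were CDC6, CDC45, GINS4, RFC1, FEN1, TK1, CCNE1, CHAF1B and ASF1B, against a background of 25.3%. The median log2 difference was -0.05 for the 41 genes and -0.31 for all genes tested. It was -0.24 for the 16203 genes above 0 in all 6 libraries.

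None of these 3 differences passed in all 6 fits that left out a library. TYMS passed only without 10 µM replicate 2, with adjusted p between 0.0627 and 0.133 in the other fits. CCNE1 also passed only without 10 µM replicate 2 and otherwise gave adjusted p between 0.0701 and 0.162. CCNE1 did not pass under median-of-ratios scaling (-0.47, adjusted p = 0.101) or total scaling (-0.58, adjusted p = 0.0712). Median-of-ratios scaling moved the median of all genes to -0.11 and the shares to 1.68% rising and 5.88% falling, with 7 of the 41 genes rising and 1 falling.

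The mitosis genes were the most like list and served for comparison. At 5 µM, 4 of 25 rose and 0 fell, where 21.3% of all genes rose, with a median log2 fold change of 0.28, and 8 were higher and 1 was lower at an unadjusted p of at most 0.05. The count that rose at 5 µM was 11 without control replicate 1, 13 under total scaling and 7 under median-of-ratios scaling. At 10 µM, 0 of 25 rose and 16 fell (median -1.21), where 5.39% of all genes rose and 9.71% fell (median -0.15). Against 5 µM 22 fell (median -1.53), where 5.85% of all genes fell (median -0.31). At an unadjusted p of at most 0.05, 0 mitosis genes were higher and 17 were lower at 10 µM than in the control. CCNB2, a B-type cyclin of mitosis, measured 270556, 220015 and 166002 FPKM in the controls, 145695, 178293 and 180551 FPKM at 5 µM and 38624, 45473 and 37905 FPKM at 10 µM. Its 10 µM cultures were far below both other groups (-2.40 ± 0.20, adjusted p = 0.00244, against the control), and CCNB2 passed in each fit that left out a library. BUB1, a spindle checkpoint kinase, fell by a log2 fold change of -2.14 ± 0.37 (adjusted p = 0.0153) at 10 µM.

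The replication and the mitosis genes thus had medians on opposite sides of the control mean in every 10 µM culture. The median log2 level of the 41 replication genes against the control mean was 0.74, 0.85 and 0.79 in the 5 µM cultures and 0.72, 1.00 and 0.81 in the 10 µM cultures. For the 25 mitosis genes the 5 µM cultures had medians of 0.12, 0.33 and 0.34, whereas the 10 µM cultures had -1.39, -0.87 and -1.28. The count of mitosis genes that fell at 10 µM was 5, 4, 4 and 5 without control replicate 1, control replicate 2, 10 µM replicate 1 or 10 µM replicate 3. Against 5 µM the count was 12, 8 and 3 without 5 µM replicates 1, 2 and 3. Without the filter on low values, 7 mitosis genes fell at 10 µM against the control and 17 against 5 µM. Without the trend of the limma fit these counts were also 7 and 17. Median-of-ratios scaling gave 16 and 21, and total scaling 14 and 22. The difference between the lists was not tested.

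**Figure D4:**
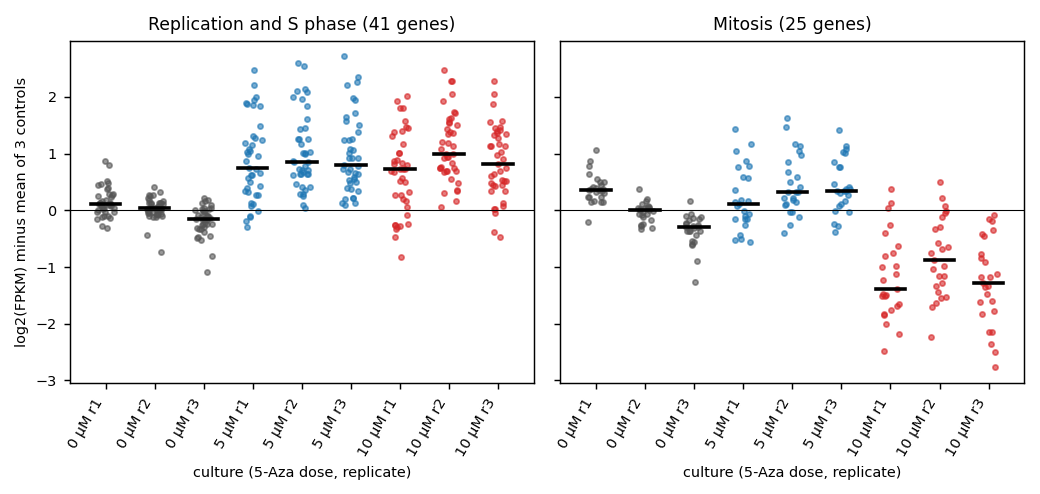
Log2 FPKM minus the mean of the 3 controls (y axis) for each of the 41 replication genes (left) and 25 mitosis genes (right) in the 9 cultures (x axis), with bars for the median of each culture. The replication medians lie between 0.72 and 1.00 in the 6 treated cultures, whereas the mitosis medians lie between -1.39 and -0.87 at 10 µM.

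Genes that work beside the 41 were examined by lists. Of 20 other replisome and fork proteins, 10 rose and 2 fell at 5 µM, and 9 rose and 1 fell at 10 µM (4 to 9 rose with a library left out). The shares of all genes were 21.3% rising and 17.7% falling at 5 µM, and 5.39% and 9.71% at 10 µM. CLSPN, a mediator of the replication checkpoint, measured 3226, 3174 and 3539 FPKM in the controls, 12413, 12579 and 12534 FPKM at 5 µM and 13125, 15510 and 19877 FPKM at 10 µM. CLSPN stood above its controls in every treated culture and rose by 1.92 ± 0.20 (adjusted p = 0.000871) and 2.27 ± 0.31 (adjusted p = 0.00808). TIMELESS, a fork protection protein, rose by 1.47 ± 0.10 (adjusted p = 0.000313) and 1.25 ± 0.16 (adjusted p = 0.00701). The falls at 5 µM were those of POLD2 (-0.96 ± 0.12, adjusted p = 0.00145) and RNASEH2B (-0.92 ± 0.11, adjusted p = 0.00147).

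Of 11 genes of origin recognition and licensing control, 4 rose and 2 fell at 5 µM, where 21.3% and 17.7% of all genes did. At 10 µM 2 rose and 0 fell, against 5.39% and 9.71% of all genes. ORC6, a subunit of the origin recognition complex, measured 34490, 27207 and 24093 FPKM in the controls, 106325, 112128 and 113339 FPKM at 5 µM and 84170, 99195 and 102296 FPKM at 10 µM. Its treated cultures lay wholly above the controls, by 1.97 ± 0.14 (adjusted p = 0.000328) and 1.75 ± 0.18 (adjusted p = 0.00407). ORC1, the largest subunit, rose at 5 µM by 2.26 ± 0.47 (adjusted p = 0.0109). ORC5 (-0.52 ± 0.15, adjusted p = 0.0328) and MCM9 (-0.32 ± 0.10, adjusted p = 0.0493) fell at 5 µM. With a library left out, ORC5 passed in 2 of 6 fits and MCM9 in 1.

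Of 12 genes of nucleotide supply, 3 rose and 4 fell at 5 µM, where 21.3% and 17.7% of all genes did. At 10 µM 0 rose and 1 fell, against 5.39% and 9.71% of all genes, and the falls numbered 5 without 10 µM replicate 2 and 0 without any other library. RRM2, the small subunit of ribonucleotide reductase, rose at 5 µM by 1.17 ± 0.25 (adjusted p = 0.0124), and so did SAMHD1, which degrades deoxynucleotides (1.27 ± 0.24, adjusted p = 0.00774). CTPS1 (-0.81 ± 0.08, adjusted p = 0.000787), TK2 (-0.63 ± 0.11, adjusted p = 0.00615) and DCTPP1 (-0.72 ± 0.16, adjusted p = 0.0148) fell at 5 µM. DUT also fell there, to a fold of 0.502 (adjusted p = 0.00328). With a library left out, DCTPP1 passed in 4 of 6 fits at 5 µM.

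Of 26 regulators of E2F and the G1/S transition, 11 rose and 4 fell at 5 µM, where 21.3% and 17.7% of all genes did. At 10 µM 1 rose and 6 fell, against 5.39% and 9.71% of all genes. RBL1, a relative of the RB protein, rose at 5 µM by 2.13 ± 0.34 (adjusted p = 0.00406) and was the gene that rose at 10 µM (2.20 ± 0.40, adjusted p = 0.0176). CDKN1A, the CDK inhibitor p21, measured 169468, 165521 and 154519 FPKM in the controls, 448384, 500969 and 549772 FPKM at 5 µM and 153231, 297208 and 200579 FPKM at 10 µM. CDKN1A was highest in the 5 µM cultures, where it rose by 1.61 ± 0.09 (adjusted p = 0.00019), and it fell between 5 µM and 10 µM (-1.25 ± 0.24, adjusted p = 0.0284). CCNA2, the cyclin A of S phase and mitosis, measured 40717, 33906 and 26941 FPKM in the controls, 33835, 46055 and 40440 FPKM at 5 µM and 12604, 16706 and 10434 FPKM at 10 µM. Unlike CCNE1 and CCNE2, it overlapped the controls at 5 µM and fell at 10 µM (-1.36 ± 0.26, adjusted p = 0.0208). The falls on this list at 10 µM ranged from 0 to 9 genes with a library left out.

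Of 12 genes of replication-coupled chromatin, 4 rose and 3 fell at 5 µM, where 21.3% and 17.7% of all genes did. At 10 µM 3 rose and 2 fell, against 5.39% and 9.71% of all genes. HELLS, a chromatin remodeler, measured 17699, 13821 and 14846 FPKM in the controls, 24379, 23229 and 24534 FPKM at 5 µM and 41778, 50990 and 55577 FPKM at 10 µM. Its groups stepped upward with dose, by 0.65 ± 0.14 (adjusted p = 0.0145) and 1.68 ± 0.20 (adjusted p = 0.00592), and it rose between the doses by 1.03 ± 0.17 (adjusted p = 0.0152). UHRF1, which brings DNA methyltransferase 1 to the fork, rose by 1.11 ± 0.12 (adjusted p = 0.000995) and 1.04 ± 0.20 (adjusted p = 0.0207). With a library left out, RRM2 and HELLS passed in 5 of 6 fits at 5 µM. At 10 µM, RBL1 passed in 3 of 6 fits, CCNA2 and UHRF1 in 2 and BUB1 in 4, and between the doses CDKN1A passed in 2 and HELLS in 3.

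**Figure D5:**
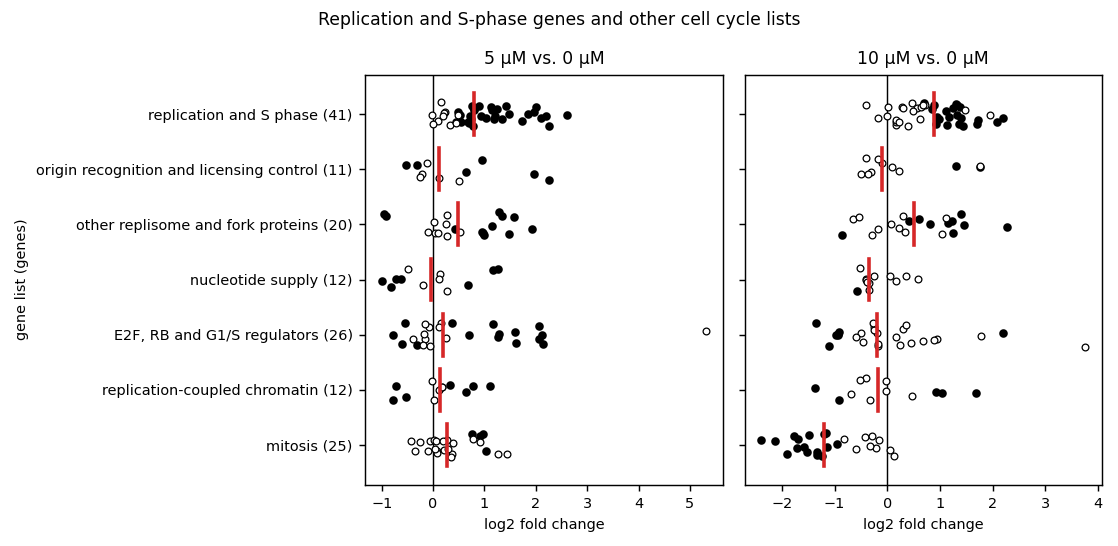
Log2 fold change (x axis) of each gene in the replication list and 6 further lists (rows) at 5 µM and 10 µM against the control, with filled points for an adjusted p of at most 0.05 and a red bar at each median. The replication medians are 0.79 and 0.88, and the mitosis median goes from 0.28 at 5 µM to -1.21 at 10 µM.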

How the data were processed

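RNA of 9 HT-29 cultures (3 each at 0, 5 and 10 µM 5-Aza, grouped by the sample labels) was sequenced in pairs with a TruSeq kit. The deposited files hold FPKM per gene, which the authors obtained from Cufflinks after read filtering (FASTX-Toolkit) and TopHat alignment against hg19. The gene annotation, the library term behind the FPKM values and whether strand was used are not given in the sources used here. FPKM values of repeated symbols (543 of 23284) were summed.

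Values were tested as log2(FPKM + 1), so fold changes are on that scale. The added 1 is small beside the replication genes, of which GINS4 was lowest with a control mean of 1718 FPKM. For genes listed at 0 in some cultures, the fold change depends on the added value and can be large. The fibroblast marker COL1A2, with means of 22.9 FPKM in the controls and 669 FPKM at 5 µM, gave a log2 fold change of 7.31. Genes whose FPKM stayed under 10 in all samples of both groups were left out of a comparison. On this scale that cut is low, since GINS4 at 974 FPKM in control replicate 2 rested on an estimated 6.4 fragments. Each comparison was fitted on its 6 samples with limma 3.58.1 in R 4.3.3 (eBayes with a trend), with Benjamini-Hochberg adjustment over all genes tested. An exact permutation test of 3 against 3 cannot go below a 2-sided p of 0.1. Further tools were scipy 1.17.1, matplotlib 3.10.9, numpy 2.4.6 and pandas 2.3.3. The fitting script was tested on simulated data.

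Values in every culture are given for genes past 2-fold in any comparison, the 10 largest changes per comparison, the highest and lowest gene of each role group, and PCNA, E2F1, CCNE1 and CCNE2. Of the other lists, up to 5 genes past 2-fold could be named, and the falls at 5 µM were added for the fork, origin and nucleotide lists. The 41 genes, the lists and the rules were chosen with earlier results of these data known. TICRR and CTPS1 were matched through the older symbols C15orf42 and CTPS. Depth was estimated from the whole-fragment steps of microRNA genes of 110 nucleotides, and intervals were not derived from it because the fragment numbers are estimates. Each step rested on 4 to 6 microRNA values. Of 590 longer genes used to scale the steps, 359 (60.8%) lay within 15% of their median. Promoter windows are RefSeq's (GRCh38.p14), and gene positions are those of GRCh37. Deviations of same-numbered samples correlated between -0.0743 and 0.086, so the numbers were not taken to pair the samples. Alternatives were other pseudocounts (0.1 and 1000), filters, scalings (median of ratios, library total) and fits, the replicate number as a block, and each library left out.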

Additional observations from a re-analysis of the deposited data

How the results depend on the processing

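The 31 rises at 5 µM ranged from 24 to 32 with a library left out and from 28 to 37 under the other alternatives, and those past 2-fold (17) from 15 to 17 and from 17 to 25. The 21 rises at 10 µM were 11 without the filter on low values, 10 without the trend and 33 under total scaling, and ranged from 6 to 19 with a library left out. Those past 2-fold (15) were 7 without the filter, 7 without the trend and 26 under total scaling, and ranged from 6 to 12. Falls at 10 µM ranged from 0 to 1 with a library left out. Between the doses, the 1 rise became 7 under median-of-ratios scaling and 2 under total scaling, the 2 falls became 1, 5 and, without the trend, 1, and with a library left out the rises ranged from 0 to 2, the falls from 0 to 7 and the falls past 2-fold from 0 to 2.

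With the replicate number as a block, 30 of the 41 genes rose at 5 µM and 16 at 10 µM, 17 and 12 of them past 2-fold, and between the doses 0 rose and 1 fell. Same-numbered samples share only a number, so this block has no stated pairing behind it.

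Signs turned under median-of-ratios and total scaling as follows. At 5 µM, POLA1 went from -0.03 to 0.01 and 0.26 and RPA1 from -0.01 to 0.02 and 0.27, and at 10 µM CDC6 went from -0.17 to 0.07 and 0.21. Between the doses, CDT1 gave 0.15 and 0.04, RFC2 0.13 and 0.02, RFC5 0.16 and 0.05, and POLE 0.18 and 0.06, while GINS1 (0.03), RFC3 (0.05) and RPA2 (0.02) turned under median-of-ratios scaling. With a library left out, MCM6 ranged from -0.06 to 0.23, POLA1 from -0.10 to 0.10 and RPA1 from -0.09 to 0.07 at 5 µM, and RFC1 from -0.12 to 0.16, RFC3 from -0.12 to 0.41 and RPA2 from -0.16 to 0.24 at 10 µM. Between the doses the ranges were -0.03 to 0.33 for MCM2, -0.17 to 0.12 for CDT1, -0.07 to 0.41 for GINS2, -0.04 to 0.26 for PCNA, -0.24 to 0.17 for RFC2, -0.44 to 0.06 for RFC3, -0.13 to 0.04 for RFC5, -0.10 to 0.15 for POLA2, -0.14 to 0.06 for POLE, -0.04 to 0.30 for POLE2, -0.35 to 0.05 for RPA2 and -0.06 to 0.40 for CHAF1A. The cause was not tested. Of the remaining values of single genes under alternatives that kept every library, 388 at 5 µM, 350 at 10 µM and 382 between the doses kept their direction and their side of the threshold. Those that no longer passed numbered 9, 26 and 5, and those that newly passed 9, 32 and 12. With a library left out, 21 values at 5 µM, 53 at 10 µM and 13 between the doses no longer passed.

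GINS4, MCM10 and POLE2 rest on few estimated fragments, and their counting error is not part of the model. With 3 cultures per dose, leaving out 1 leaves 5 libraries in the fit.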
